A study of Mus musculus with 2 samples.

Results

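The serpins are a family of proteins that mostly inhibit proteases, and their mRNAs were measured here in prostaspheres (prostate epithelial cells cultured as spheres in matrigel), with and without the transcription factor Sox9. Members were all genes whose symbol on the array starts with Serpin, chosen by name and not by level: 56 of 27827 named genes, on 74 of 41174 probes. The slide held 2 Agilent whole mouse arrays, and each took 2 RNAs. On the first, called the genotype array, RNA of wild-type cells (C57/Bl6J) treated with tamoxifen (TAM) was labeled with Cy5 and RNA of ER-Sox9flox/flox cells treated with TAM with Cy3. On the second, the treatment array, RNA of ER-Sox9flox/flox cells given vehicle was labeled with Cy5 and RNA of ER-Sox9flox/flox cells treated with TAM with Cy3. ER-Sox9flox/flox cells carry a floxed Sox9 on both alleles and, per the methods, a Cre recombinase expressed from Rosa26, hence in cells of every type, which TAM activates. The labels give C57/Bl6J as the background of all 4 RNAs, and the same genotype for both RNAs of the treatment array, which differ there by treatment. All spheres had dihydrotestosterone, 6 days in matrigel, and then 6 days of 5 µM TAM or vehicle. The labels name urogenital sinus (UGS) epithelium of embryos at 16 dpc as the source, while the methods describe prostaspheres from adult prostate, and the number of animals per RNA is not given in the sources used here.

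Each log2 ratio below is Sox9-expressing over Sox9-deleted RNA, so that a value above 0 is a higher level with Sox9, and a log2 ratio of 1 is a 2-fold difference. The RNAs of the genotype array also came from different mouse lines, those of the treatment array also differed in exposure to TAM, and the Sox9-expressing RNA was in Cy5 each time, so that line, TAM and dye cannot be told apart from Sox9 within an array. A mean is given with its SD over the arrays (n = 2), and limma's adjusted p, computed over all 22731 tested probes, measures only the spread between these arrays. For each probe limma draws this spread toward a value pooled over all tested probes (2.80 prior against 1 residual degree of freedom). Fewer cells of a type and less RNA per cell cannot be told apart in such bulk RNA. Log2 ratios of dim probes are understated, because a constant of 50 was added to every brightness. The brightest probe of Sox9 itself had log2 ratios of 2.69 and 2.37 on the genotype and treatment arrays and a second probe 1.18 and 1.27, while the mean of the remaining probe was -1.11. Of the markers of cell types, all 9 of the basal epithelial list had ratios above 0 on each array, and 10 of 11 stromal markers were lower on the genotype array and higher on the treatment array.

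Serpins share a fold with an exposed reactive loop. In an inhibitory serpin the target protease cuts this loop, which then inserts into the main sheet of the serpin, and the protease is trapped in a distorted, inactive complex. Other members have lost this activity and act as hormone carriers or chaperones, or bind matrix. The family is split into clades by sequence: clade A holds secreted plasma serpins such as the antitrypsins and antichymotrypsins, clade B intracellular serpins such as maspin (Serpinb5), and the smaller clades the regulators of clotting, fibrinolysis, complement and collagen folding. In prostate epithelium, maspin is known as a gene of basal cells.

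The probes carry pieces of this architecture, and those of 7 serpins that the results turn on are printed because each ratio below rests on a single sequence. Positions are in the mm9 build that the array headers name, bases run 5′ to 3′, and a probe whose span exceeds its 60 bases crosses an intron. Capitals mark the codons of the reactive-loop hinge in the Serpine2 probe and of the serpin family signature in the Serpinb1a probe, found by translating each probe in its forward frames. Of 74 probes, 1 held the hinge pattern and 2 the signature. For Serpinf1 the second, less bright of its 2 probes is shown.
Serpine2 (chr1:79793476-79796093, -): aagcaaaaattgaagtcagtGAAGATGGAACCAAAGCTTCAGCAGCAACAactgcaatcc
Serpinb1a (chr13:32934722-32934781, -): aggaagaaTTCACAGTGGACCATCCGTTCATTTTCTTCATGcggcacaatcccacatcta
Serping1 (chr2:84605968-84607474, -): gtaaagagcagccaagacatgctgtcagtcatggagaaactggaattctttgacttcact
Serpinf1 (chr11:75229163-75229222, -): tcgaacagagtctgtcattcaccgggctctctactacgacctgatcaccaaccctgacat
The probes of Serpinb5, Serpina3n and Serpinb2 are shown by their first 30 bases.
Serpinb5 (chr1:108778585-108778644, +): ccaagtctcagggaacttgtctgtagtcgc
Serpina3n (chr12:105651918-105651977, +): ttggcatgcctggattagatagtgactaac
Serpinb2 (chr1:109421496-109421555, +): ttggtagattctcctcaccctaaaagggga

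Promoters of 46 of the 56 genes were found in RefSeq's table (GRCm38.p6), 16 of them of the 22 tested genes. The 250 bases before the start were searched on both strands for the Sox-type words AACAAT and AACAAAG and the Stat-type word TTCNNNGAA, where N is any base. Of all 27025 promoters, 9.65% held AACAAT, 4.99% AACAAAG and 7.18% TTCNNNGAA. Of the 16 promoters of tested serpins, 0 held AACAAT, 2 held AACAAAG (Serpinb11 and Serpinb9) and 3 held TTCNNNGAA (Serpina3f, Serpina3g and Serpinb6a). Shown are 2 genes of the clade B cluster with ratios above 0 on each array and 2 of the clade A cluster that differed in direction between the arrays, with matches in capitals. A match is a word in the sequence and not a measured binding site.
Serpinb5 (chr1:106860925-106861174, +): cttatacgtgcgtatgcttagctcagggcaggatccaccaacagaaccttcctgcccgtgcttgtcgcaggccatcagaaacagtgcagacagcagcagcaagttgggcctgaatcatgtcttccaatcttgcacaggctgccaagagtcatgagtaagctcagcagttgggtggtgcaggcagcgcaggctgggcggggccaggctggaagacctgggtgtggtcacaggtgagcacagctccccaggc
Serpinb11 (chr1:107362064-107362313, +): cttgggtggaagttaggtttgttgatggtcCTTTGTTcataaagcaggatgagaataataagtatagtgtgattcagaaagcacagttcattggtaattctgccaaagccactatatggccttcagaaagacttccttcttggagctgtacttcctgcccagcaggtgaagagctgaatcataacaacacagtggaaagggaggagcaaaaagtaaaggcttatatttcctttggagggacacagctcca
Serpina3n (chr12:104406458-104406707, +): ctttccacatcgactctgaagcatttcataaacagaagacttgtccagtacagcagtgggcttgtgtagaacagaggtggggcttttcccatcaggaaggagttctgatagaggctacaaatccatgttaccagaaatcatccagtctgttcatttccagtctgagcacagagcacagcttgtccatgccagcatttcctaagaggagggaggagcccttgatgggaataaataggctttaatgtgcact
Serpina3g (chr12:104235897-104236146, +): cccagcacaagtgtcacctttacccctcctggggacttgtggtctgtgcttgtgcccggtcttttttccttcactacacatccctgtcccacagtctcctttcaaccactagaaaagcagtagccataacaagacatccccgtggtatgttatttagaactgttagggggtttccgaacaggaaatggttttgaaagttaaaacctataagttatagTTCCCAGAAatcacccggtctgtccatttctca

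Most serpin genes were not measurable in these spheres. Each gene was represented by its brightest probe, and tested where in one and the same dye both arrays gave that probe a signal well above background, which held for 22 of 56 serpins (39.3%) and for 54.3% of all named genes. In none of the 4 RNAs was the brightest probe of 30 serpins well above background, and 4 more (Serpina1c, Serpinb1c, Serpinb3c and Serpinf2) reached it in 1 RNA each. Of the tested genes, 21 were well above background in all 4 RNAs, and Serpina3f only in both Sox9-deleted RNAs.

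**Figure D1:**
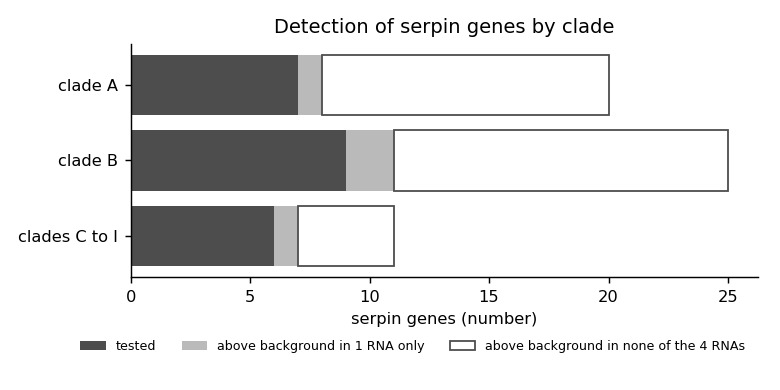
Number of serpin genes per clade (x axis) that were tested, well above background in 1 RNA only, or in none of the 4 RNAs. Tested were 7 of 20 genes of clade A, 9 of 25 of clade B and 6 of 11 of clades C to I.

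Several serpins of blood plasma were among the genes without signal. Antithrombin (Serpinc1) and heparin cofactor II (Serpind1), which inhibit thrombin, were not well above background in any RNA, and alpha2-antiplasmin (Serpinf2) was so only in the Sox9-deleted RNA of the treatment array. Of the liver markers Alb, Ttr, Apoa1, Apob, Fgb and Ahsg, 0 of 6 were tested either. The array has no probe named Serpina1a, an antitrypsin gene, and the tested antitrypsin probe, Serpina1d, also matches transcripts of Serpina1c and Serpina1e. Serpinb3a, a mouse counterpart of the squamous cell carcinoma antigens, was not well above background in any RNA. Over the 34 untested genes the log2 ratios ran from -0.05 to 0.07 on the genotype array and from -0.36 to 0.31 on the treatment array. Such values at background are no measure of an equal level. By position, 7 of the 19 clade A genes on chromosome 12, 5 of the 12 clade B genes on chromosome 1 and 4 of the 13 clade B genes on chromosome 13 were tested.

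The tested serpins did not share a direction. On both arrays 7 of 22 were higher with Sox9 (33.9% of all tested genes were), 8 were lower (33.8%) and 7 had opposite signs (32.4%). With each array centred on its median in place of loess normalization, the count lower on both arrays fell from 8 to 2 and that of opposite signs was 13, while 7 were still higher on both. This centring left the median of all genes on the treatment array at 0.42. Shares of all genes by direction were not counted under it. At an adjusted p under 0.05, limma called 0 serpins, and 0.0132% of all genes, and after the same adjustment the methods' t-test called 0 (0%). Unadjusted p-values under 0.05 were found for 8 serpins by limma (19.5% of all genes), 3 of them higher with Sox9 (10.5%) and 5 lower (9.07%), and for 2 by the methods' t-test (8.8%), Serpina3f and Serpinb6a. Serpina3f, one of the 5, passed the filter through the Sox9-deleted RNAs alone, so that its direction was given by the filter. With signal required in both dyes on both arrays, unadjusted limma p-values under 0.05 were found for 7 serpins, 4 of them lower. Of all genes, 20.3% had such a p-value there in either direction. No serpin was 2-fold higher (0.377%) or 2-fold lower (0.159%) on both arrays. On the genotype array alone 4 serpins differed at least 2-fold (1.67%) and on the treatment array 3 (2.11%).

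**Figure D2:**
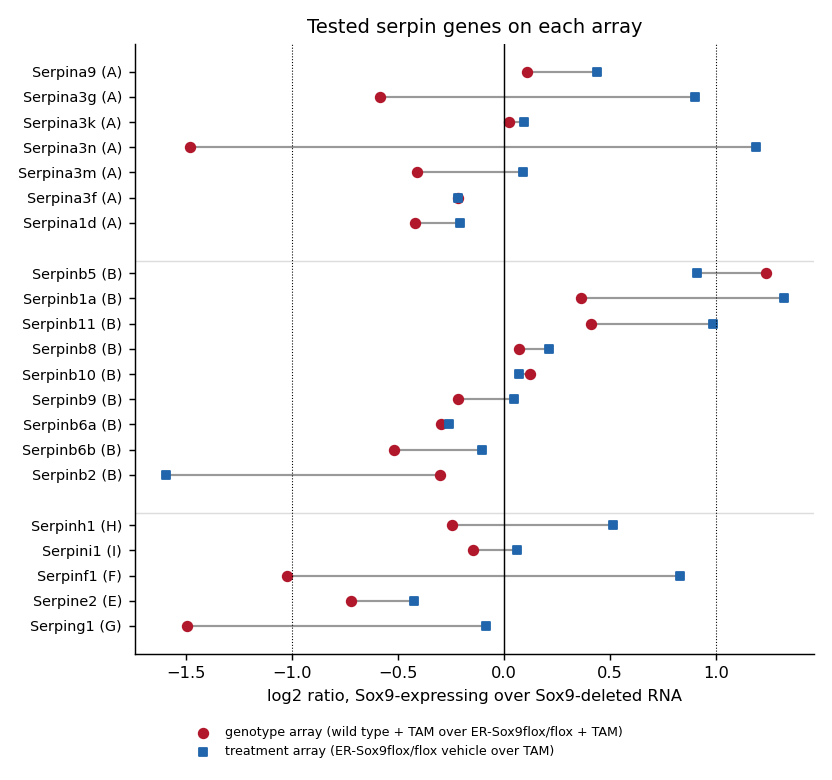
Log2 ratio (x axis) of 21 of the 22 tested serpin genes on the genotype array (circles) and the treatment array (squares), by clade and ordered by their mean. Dotted lines mark 2-fold, and Serpina3n lies past both of them, at -1.48 and 1.19.

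The arrays differed more from each other over the serpins than over all genes. The median absolute difference between the log2 ratios of the arrays was 0.33 over the 22 serpins and 0.14 over all 15120 tested genes. Lower with Sox9 on the genotype array and higher on the treatment array were 7 of the 22 serpins (31.8%) and 18.4% of all genes. These were all 7 serpins with opposite signs. Of the 4896 genes with opposite signs among all tested genes, 2786 had this sense. Opposite signs with the arrays at least 1 log2 unit apart were found for 3 of the 22 serpins (13.6%) and 1.83% of all genes. The 3 were Serpina3n, Serpinf1 and Serpina3g. Serping1 (-1.49 and -0.09) and Serpinb2 (-0.30 and -1.60) also lay over 1 log2 unit apart, but with the same sign on both arrays. The median log2 ratio was -0.23 on the genotype array and 0.08 on the treatment array, against -0.01 and 0.01 for all genes. Across all tested genes, which are not independent replicates, the arrays correlated with a Pearson r of 0.44.

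**Figure D3:**
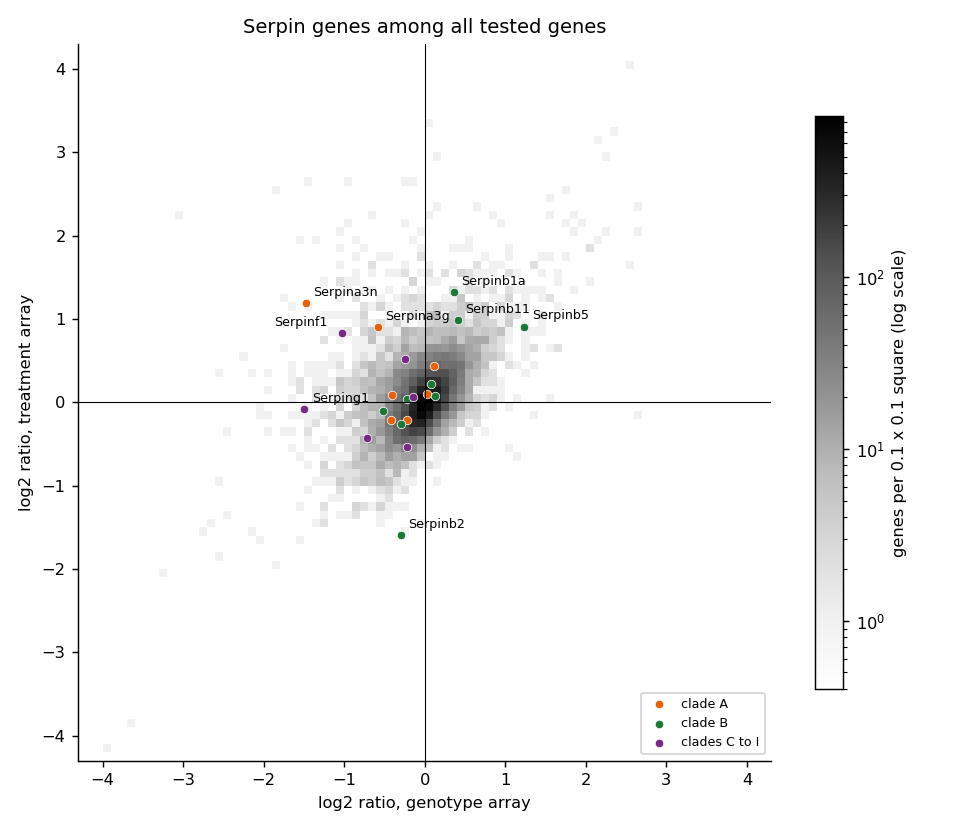
Log2 ratio on the genotype array (x axis) against the treatment array (y axis), with all 15120 tested genes as a grey density and the 22 tested serpins coloured by clade. Serpinb5, Serpinb1a and Serpinb11 lie to the upper right, Serpinb2 at the bottom, and Serpina3n, Serpinf1 and Serpina3g to the upper left.

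By the mean over both arrays, the 3 highest serpins belonged to clade B. Serpinb5 encodes maspin, a clade B serpin without known protease inhibition and a product of basal epithelial cells. Its log2 intensity was 13.2361 in wild-type cells with TAM and 11.9996 in ER-Sox9flox/flox cells with TAM on the genotype array, and 12.8779 with vehicle and 11.9686 with TAM on the treatment array. Both Sox9-expressing RNAs lay above both Sox9-deleted RNAs, and the Sox9-deleted RNAs were within 0.03 log2 units of each other. The log2 ratios were thus 1.24 and 0.91, a mean of 1.07 ± 0.23 (SD, n = 2) or 2.10-fold, larger than the spread between arrays, with a limma adjusted p of 0.0972. Over the alternative settings with a limma test the adjusted p ran from 1.78885e-05, with median centring, to 0.294. Median centring left the median of all genes at 0.42 on the treatment array, and 425 of 15120 genes then passed, against 2 with loess. Serpinb5 had both ratios above 0 under all 9 alternatives. Beside it the basal epithelial list had median log2 ratios of 1.15 and 1.09, with a summed level of its 9 markers of 394031 and 337110 in Sox9-expressing RNA and 126673 and 125443 in Sox9-deleted RNA on the linear intensity scale. Of the suprabasal and squamous list, 6 of 10 tested markers were higher on both arrays, 3 of them at least 2-fold (Krt10, Krt6b and Lor), while Ivl, Sprr1a and Sprr1b were lower on both. Krt1, 1 of the 6, passed the filter through the Sox9-expressing RNAs alone, so that its direction was given by the filter. The medians of this list were 0.62 and 0.81. With signal required in both dyes on both arrays, 5 of 9 were higher on both, with medians of 0.49 and 0.70. The summed level of the 10 tested markers was 69586 and 65324 in Sox9-expressing RNA and 45884 and 42319 in Sox9-deleted RNA. The part of the number of basal or suprabasal cells in the Serpinb5 ratio was not tested.

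Serpinb1a inhibits neutrophil elastase, cathepsin G and proteinase 3. Its log2 intensity was 10.57 and 10.21 in wild-type and ER-Sox9flox/flox cells with TAM, and 11.33 and 10.01 in vehicle- and TAM-treated ER-Sox9flox/flox cells. The vehicle-treated cells stood highest, and the Sox9-expressing RNAs again lay above the Sox9-deleted RNAs. Log2 ratios were 0.36 and 1.32, averaging 0.84 ± 0.68 (limma adjusted p = 0.243). With median centring the limma adjusted p was 0.00238, in a setting where 425 of all 15120 genes passed, against 2 with loess. Serpinb11, of the same cluster on chromosome 1 as Serpinb5, had log2 intensities of 7.84 and 7.43 on the genotype array and 8.29 and 7.30 on the treatment array. Here, too, both Sox9-expressing RNAs were the higher ones, with log2 ratios of 0.41 and 0.99 that averaged 0.70 ± 0.41 (limma adjusted p = 0.19). The other clade B genes higher on both arrays were small in ratio, Serpinb8 at 0.07 and 0.21 and Serpinb10 at 0.12 and 0.07. A second probe of Serpinb8 read -0.05 and 0.22.

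**Figure D4:**
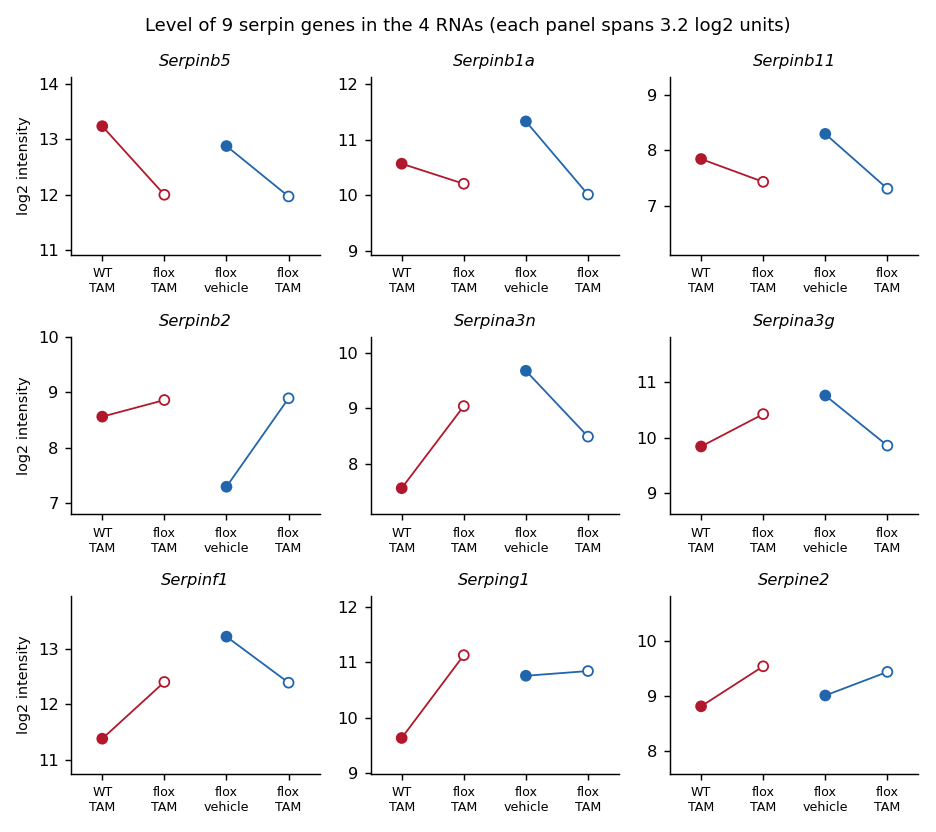
Log2 intensity (y axis) of 9 serpin genes in each RNA, with the genotype array in red and the treatment array in blue, filled points for Sox9-expressing and open points for Sox9-deleted RNA. In Serpina3n and Serpinf1 the filled points are the lowest and the highest of the 4 RNAs.

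Serpinb2, a clade B gene also known as plasminogen activator inhibitor 2 and located near Serpinb11, had the lowest mean of all tested serpins. Its log2 intensity was 8.56 and 8.86 on the genotype array and 7.29 and 8.89 on the treatment array. The other RNAs were close, and the vehicle-treated cells stood below, 1.26 log2 units under the wild-type cells. The log2 ratios of -0.30 and -1.60 averaged -0.95 ± 0.92 (limma adjusted p = 0.288). Another probe, which overlaps the first in part, read -0.34 and -1.34. Serpinb6a, an intracellular inhibitor of cathepsin G, showed the closest agreement of the arrays among the genes lower on both that were measured in all RNAs, with levels of 11.95 and 12.24 and of 12.01 and 12.26. Its log2 ratios of -0.29 and -0.26 gave a mean of -0.28 ± 0.03 (limma adjusted p = 0.213), which turned to 0.10 with median centring. Its relative Serpinb6b read -0.52 and -0.10. Serpinb9, which inhibits granzyme B, read -0.22 and 0.05 on its brighter probe and -0.03 and 0.18 on the other, so that the means of its probes, -0.09 and 0.08, differed in sign. It was the 1 gene of 4 with several tested probes in which they did.

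Clade A, the secreted antitrypsin and antichymotrypsin group, was led by Serpina3n, a relative of human antichymotrypsin that is known to rise in the acute-phase response. Its log2 intensity was 7.56 in wild-type cells with TAM and 9.04 in ER-Sox9flox/flox cells with TAM, and 9.67 with vehicle and 8.49 with TAM on the treatment array. The lowest and the highest level both belonged to Sox9-expressing RNA, and the Sox9-deleted RNAs lay between them. The log2 ratio was -1.48 on the genotype array and 1.19 on the treatment array, so that the average of -0.15 ± 1.89 (limma adjusted p = 0.927) was far smaller than the spread. Of all 15120 tested genes, 18 (0.119%) were at least 2-fold apart in opposite senses like this, and Serpina3n was the 1 serpin among them. The signs held under all 9 alternatives, with -2.51 to -1.45 on the genotype array and 0.87 to 1.69 on the treatment array.

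Serpina3g, an intracellular member of the same gene cluster that inhibits cathepsins, had log2 intensities of 9.84 and 10.43 and of 10.76 and 9.86. The order of the RNAs was that of Serpina3n at its ends, with wild-type cells lowest and vehicle-treated cells highest. Log2 ratios were -0.58 and 0.90, with a mean of 0.16 ± 1.05 that turned to -0.07 when the arrays were scaled to the same spread. Serpina3m read -0.41 and 0.09, which is the same pair of signs with a smaller treatment ratio. Serpina1d read -0.42 and -0.21, a mean of -0.31 ± 0.15 (limma adjusted p = 0.231), on a probe shared with other antitrypsin genes. Serpina3f was not well above background in Sox9-expressing RNA. Its mean log2 intensity in Sox9-deleted RNA was 6.78, which was 1.16-fold above the reading at background in Sox9-expressing RNA. A second probe of Serpina3f was not well above background in any RNA. This gene entered the fit only through the RNA in which it is higher, so no p-value is given for it. Serpina9 read 0.11 and 0.44 and Serpina3k, the kallikrein-binding protein, 0.03 and 0.10. Clade A medians were -0.41 on the genotype array and 0.10 on the treatment array, from 7 tested of 20 genes.

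Among the serpins of matrix and collagen, Serpinf1 showed the same pair of signs. It encodes pigment epithelium-derived factor, a secreted serpin without inhibitory activity that binds collagen. Its log2 intensity was 11.38 and 12.40 on the genotype array and 13.22 and 12.39 on the treatment array. The Sox9-deleted RNAs were within 0.01 log2 units of each other, with wild-type cells below and vehicle-treated cells above them, 1.84 log2 units apart. Log2 ratios were -1.02 and 0.83 (average -0.10 ± 1.31, limma adjusted p = 0.932), and the second probe, printed above, read -0.98 and 0.77. Serpinh1, also called HSP47, the collagen chaperone of the endoplasmic reticulum, had log2 intensities of 12.59 and 12.83 and of 13.17 and 12.66, with log2 ratios of -0.24 and 0.52. Neuroserpin (Serpini1), an inhibitor of tissue plasminogen activator, read -0.14 and 0.06. Each of these 3 genes was lower on the genotype array and higher on the treatment array under all 9 alternatives.

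The stromal markers, too, were lowest in wild-type and highest in vehicle-treated cells when summed. Of 11 tested (Col1a1, Col1a2, Col3a1, Dcn, Lum, Pdgfra, Pdgfrb, Thy1, Fap, Vim and Acta2), 10 were lower with Sox9 on the genotype array and higher on the treatment array, and Dcn was lower on both. Their median log2 ratio was -0.72 on the genotype array and 0.85 on the treatment array. The summed linear intensity of the list was 37548 in wild-type cells with TAM, 63807 in ER-Sox9flox/flox cells with TAM on the genotype array, 96231 with vehicle and 57906 with TAM on the treatment array. Col3a1 had the widest gap, at -1.63 and 1.13. The defining markers of the list were thus well above background in these epithelial spheres, and their part in the results for Serpina3n, Serpina3g, Serpinf1, Serpinh1 and Serping1 was not tested. Of 8 immune markers, 5 were not tested for lack of signal, among them Ptprc, Cd3e, Itgam and Emr1, and the 3 tested summed to 1904 and 3361 on the genotype array and 3616 and 4190 on the treatment array.

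Serping1 and Serpine2 were lower with Sox9 on both arrays, except that with median centring their treatment ratios were 0.49 and 0.08. Serping1, the C1 inhibitor, which blocks the first complement proteases and plasma kallikrein, had log2 intensities of 9.64 and 11.13 on the genotype array and 10.76 and 10.84 on the treatment array. Only the wild-type cells stood apart, below the other 3 RNAs. The log2 ratios of -1.49 and -0.09 averaged -0.79 ± 0.996 (limma adjusted p = 0.365). Serpine2, protease nexin 1, whose probe spans the hinge printed above, inhibits thrombin and plasminogen activators. Its log2 intensity was 8.81 and 9.54 on the genotype array and 9.01 and 9.43 on the treatment array, with both Sox9-deleted RNAs above both Sox9-expressing RNAs. Log2 ratios were -0.72 and -0.43, averaging -0.57 ± 0.21 (limma adjusted p = 0.157), larger than the spread between arrays. Relative to the median of all genes, its treatment ratio with median centring was -0.34, and that of Serping1 was 0.07. The 6 tested genes of clades C to I had medians of -0.48 and -0.01, and 0 of them were higher on both arrays.

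Proteases that serpins act on were then read from a list of 37 genes that also holds their receptors and the cofactor vitronectin (Vtn), of which 21 were tested. On both arrays 14 of 21 were lower with Sox9 (33.8% of all genes were), 1 was higher (33.9%) and 6 had opposite signs (32.4%), while with median centring 4 were lower on both. Unadjusted limma p-values under 0.05 were found for 5 genes, all with a lower mean (9.07% of all genes): Plat, Plaur, Prss8, St14 and Tmprss2. With median centring this count was 1, and by the methods' t-test 2, where 12.5% and 8.8% of all genes passed in either direction. Shares of all genes by direction were not counted with median centring. None passed after adjustment, and none differed 2-fold in the same direction on both arrays. The medians were -0.26 and -0.13. Thrombin (F2), plasminogen (Plg), neutrophil elastase, cathepsin G, granzymes A and B and vitronectin were not tested for lack of signal.

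**Figure D5:**
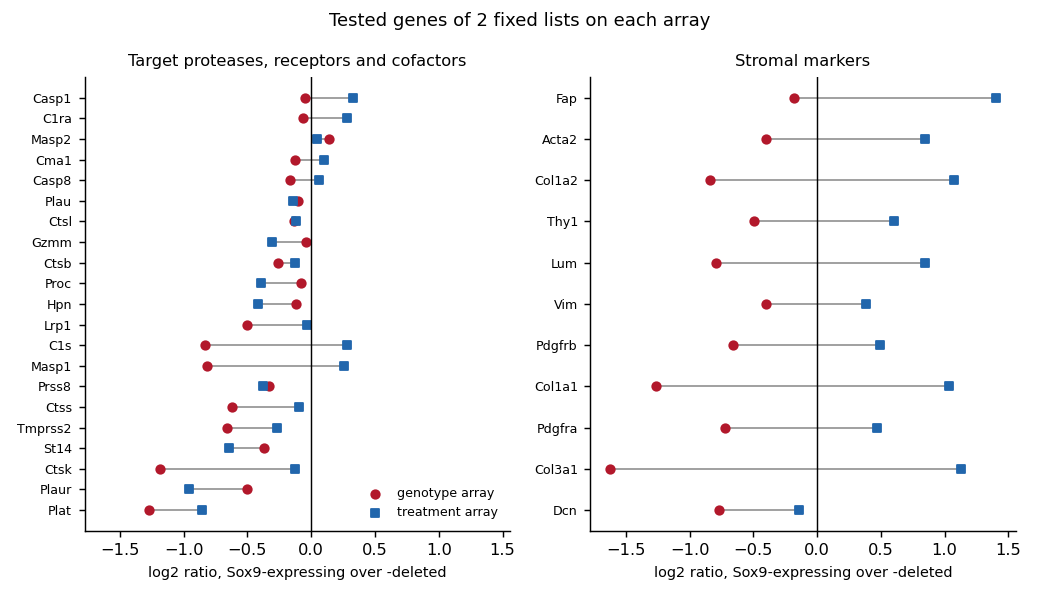
Log2 ratio (x axis) of the 21 tested genes of the protease list and the 11 stromal markers on the genotype array (red circles) and the treatment array (blue squares), ordered by their mean. In the stromal panel all circles lie below 0 and 10 of 11 squares above it, while Plat lies below 0 on both arrays.

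Plat and Plaur, of the plasminogen activator system, had the lowest means of the protease list. Plat, tissue plasminogen activator, a target of Serpine2 and Serpini1, had log2 intensities of 11.34 and 12.61 on the genotype array and 11.60 and 12.45 on the treatment array. Both Sox9-deleted RNAs were above both Sox9-expressing RNAs, with log2 ratios of -1.27 and -0.85 that averaged -1.06 ± 0.29 (limma adjusted p = 0.108). Plaur, the urokinase receptor, read -0.50 and -0.96, a mean of -0.73 ± 0.32 (limma adjusted p = 0.16). Urokinase itself (Plau), by contrast, read -0.10 and -0.15.

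The other proteases were closer to 0 or split between the arrays. Ctsk, the collagen-degrading cathepsin K, read -1.19 and -0.13, and cathepsin L (Ctsl) -0.14 and -0.12. St14, the epithelial membrane protease matriptase, read -0.37 and -0.65 (mean -0.51 ± 0.20, limma adjusted p = 0.171). The highest means belonged to Casp1 (0.14), C1ra (0.11) and Masp2 (0.09). C1s and Masp1, complement proteases that the C1 inhibitor blocks, read -0.83 and 0.28 and -0.82 and 0.26, with the pair of signs seen in the stromal markers.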

How the data were processed

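Two-color Agilent arrays of prostasphere RNA were read from the authors' deposited scanner files (Feature Extraction 10.5.1.1, mm9), which hold mean and local background intensities per spot and log10 ratios of processed intensities. A value table the authors also deposited holds log2 ratios, as slopes of 3.12 and 3.14 on the log10 ratios show. Its column medians were -0.0099 and -0.0034, and its steps are not given in the sources used here. Background was corrected with normexp (offset 50) in limma 3.58.1 (R 4.3.3), 1639 control spots of 45018 were left out, and loess was run within arrays. Outlier spots (126 and 130) were dropped, and each probe's spots averaged. No spot was saturated. Probes well above background on over 0.5 of their spots in one and the same dye on both arrays entered a fit with lmFit and eBayes (mean against 0, 2-sided, 1 residual degree of freedom, prior SD 0.119), with Benjamini-Hochberg adjustment. Log2 intensities of single RNAs came after loess and Aquantile. Direction followed titles, treatments and dyes, not source names. Named were the 3 highest and 3 lowest tested genes per clade group, genes past 2-fold in opposite ways, genes whose probes differed in sign, genes chosen by role and, of the protease list, the 3 highest, the 3 lowest and Plau, Plat, Plaur, Ctsl and St14. All other genes with values were named beyond this rule after their values were seen. The values of 1 tested serpin are not reported here, though counts and medians include it. Members and lists were chosen with earlier results of these data known. Alternatives were another offset, no background subtraction, median centring, processed signals, the value table, equal spread, other filters, the mean over probes, the methods' t-test and each array alone. The code was tested on simulated data. With 2 arrays, their number limits the precision.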

Additional observations from a re-analysis of the deposited data

Results flagged for a closer look

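Serpina3n was at least 2-fold apart in opposite senses on the arrays, with a log2 ratio of -1.48 for wild-type over ER-Sox9flox/flox cells, both with TAM, and of 1.19 for vehicle over TAM in ER-Sox9flox/flox cells. With 1 array for each contrast, this difference was not tested. The Sox9-expressing RNAs differed by 2.12 log2 units, with vehicle-treated cells above wild-type cells, and the Sox9-deleted RNAs by -0.55, treatment array over genotype array.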

How the results depend on the processing

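Each ratio already pairs the 2 RNAs of an array. No further pairing was possible because both arrays form a single group of ratios, with no second group to share replicate numbers. Median centring in place of loess gave 1 serpin at least 2-fold higher on both arrays (Serpinb5). Past the adjusted limma threshold were 2 (Serpinb5 at 1.47 and Serpinb1a at 1.15). The unadjusted one was passed by 5, 4 higher and 1 lower, against 3 and 5 with loess. Of all 15120 genes, 425 then passed the adjusted threshold, against 2 with loess, and 12.5% the unadjusted one, against 19.5%. Under median centring the means of Serpinf1 (0.30), Serpina3n (0.12), Serpinb6a (0.10), Serpinb9 (0.093) and Serpini1 (0.051) turned above 0. The medians of all genes were then 0.016 on the genotype array and 0.42 on the treatment array, and with each array set relative to its own median these means were 0.08, -0.10, -0.12, -0.13 and -0.17. The scanner software's processed signals gave 1 serpin at least 2-fold higher (Serpinb11) and 1 lower (Serpina3f) on both arrays. Serpina3f read -3.22 and -2.44 there, but was not well above background in Sox9-expressing RNA, so that its direction was given by the filter. The shares of all genes past 2-fold, or in each direction, were not counted for the alternative settings. The methods' t-test gave 2 unadjusted calls. With the arrays scaled to the same spread, the mean of Serpina3g was -0.065. On single arrays, 1 to 2 serpins were at least 2-fold higher and 1 to 3 lower, and the median ratio was -0.23 to 0.08. The cause of these shifts was not tested. The other 46 values of counts and medians and 231 values of single genes were rated as unchanged. Counts near the main one were so rated, such as 6 to 10 unadjusted limma calls against 8, and medians within the spread between arrays. Single genes were so rated when the mean kept its sign and side of the adjusted threshold. On 1 array alone a gene's value always lies within the SD of both, so that this rating was fixed in advance. The t-test and the other filters, the latter among the 9 alternatives above, reuse the main ratios and could not change a direction. The dim genes are limited by their signal over background, as 34 of 56 serpins were not tested.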
